A study of Mus musculus with 2 samples.

Results

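Centrioles are barrels of microtubules found at the core of the centrosome. Before division a cell builds 1 new centriole beside each old one, starting from a cartwheel whose assembly the kinase Plk4 controls. In a resting cell the older centriole can dock at the membrane and become the basal body of a primary cilium. Cardiomyocytes of rodents leave the cell cycle soon after birth, and their centrosomal proteins are known to move from the centriole to the nuclear envelope at that time. The genes described here are 93 of the 14854 genes with an open promoter in a heart ATAC-seq table, which counts DNA opened to the Tn5 transposase.

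Members were the genes annotated in the deposited table with the gene ontology term for the centriole and with a promoter peak no more than 1 kb from a start site. This gave 97 genes. The rule then left out 2 genes that also carry the DNA repair term (Herc2 and Cetn2) and 2 named mitotic kinases (Plk1 and Aurka). Each gene is represented by its strongest promoter peak, chosen by the sum of its counts over both libraries, so its overall level was used in the choice and is given only as a description. The difference between the libraries took no part in the rule. Another 5 genes with the term had peaks assigned to them but none annotated within 1 kb of a start site. Among them, Cep170 has its start in the promoter peak assigned to the member Sdccag8, on the opposite strand. By the deposited annotation, 91 members had a peak at distance 0 from an annotated start. The peak of Cep128 lay 3 bp from its start, and that of Ccdc146 was the member farthest out, at 738 bp, with 164 control and 106 knockout counts. Just outside the limit lay the peaks of Tsks at position -1208 from its start (164 and 151 counts) and Cibar2 at -1484 (170 and 192 counts).

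Both libraries came from hearts of mice 15 days of age on normal chow. The control mice carried floxed Ythdc1 alleles (Ythdc1flox/flox), and the knockout mice (Ythdc1 CKO) had a cardiac-specific deletion of Ythdc1, whose protein binds N6-methyladenosine marks on RNA in the nucleus. The study asked how this deletion changes open chromatin in the heart. For the Cre driver, the number of animals per library and any pooling, nothing is given in the sources used here. Each genotype has 1 library, so no spread between animals could be measured, no test was made and no p-value is given. Intervals are exact (Clopper-Pearson) 95% intervals of a ratio and cover counting error only.

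The control library had 6755590 counts over 58076 deposited peaks, and the knockout library 6466537. Levels are given as counts and as CPM, which scales each library to the same total over all peaks, and differences as the log2 ratio of knockout to control CPM with 0.5 counts added. In bulk heart, a smaller share of cells with an open promoter and less opening per cell cannot be told apart. Promoters of all 10 cardiomyocyte markers examined were measured in both libraries, including Myh6 with 799 and 758 counts. The Ythdc1 promoter itself had 358 and 314 counts, which does not check the deletion, since a floxed deletion need not touch the promoter. Of 10 markers of other epithelial and multiciliated cells, 3 had a promoter peak, as did 2 of 10 myeloid markers.

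The promoter sequences below are those of 6 members that mark the range of the data: the duplication factor Cep152, the Ccp110 cap with Ccnf (which targets Ccp110 for destruction) and Mphosph9 at the low end, and Plk4 and Hap1 at the high end. Hap1 and the choice of the other 5 for printing were made after the values were seen. Each sequence is 300 bases from RefSeq on GRCm38.p6, from 250 bases before the start site, written 5′ to 3′ on the gene's strand. Capitals mark matches to the motifs searched, which are spelled out with their counts further on. Their places are Ccp110 at chr7:118712293-118712592 (plus strand), Ccnf at chr17:24251360-24251659 (minus), Mphosph9 at chr5:124327923-124328222 (minus), Cep152 at chr2:125625064-125625363 (minus), Plk4 at chr3:40799701-40800000 (plus) and Hap1 at chr11:100356079-100356378 (minus).
Ccp110: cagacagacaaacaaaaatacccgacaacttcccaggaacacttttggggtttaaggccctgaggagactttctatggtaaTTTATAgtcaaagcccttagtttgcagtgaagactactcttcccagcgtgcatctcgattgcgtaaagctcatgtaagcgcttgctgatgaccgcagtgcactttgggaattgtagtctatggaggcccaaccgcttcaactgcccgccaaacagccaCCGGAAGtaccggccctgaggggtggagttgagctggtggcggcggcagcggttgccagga
Ccnf: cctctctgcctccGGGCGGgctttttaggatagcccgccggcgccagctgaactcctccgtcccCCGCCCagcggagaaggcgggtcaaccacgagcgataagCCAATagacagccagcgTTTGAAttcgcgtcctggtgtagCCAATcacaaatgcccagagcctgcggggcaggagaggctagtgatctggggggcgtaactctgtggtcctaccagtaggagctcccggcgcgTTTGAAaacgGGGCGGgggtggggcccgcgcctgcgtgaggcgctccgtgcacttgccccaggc
Mphosph9: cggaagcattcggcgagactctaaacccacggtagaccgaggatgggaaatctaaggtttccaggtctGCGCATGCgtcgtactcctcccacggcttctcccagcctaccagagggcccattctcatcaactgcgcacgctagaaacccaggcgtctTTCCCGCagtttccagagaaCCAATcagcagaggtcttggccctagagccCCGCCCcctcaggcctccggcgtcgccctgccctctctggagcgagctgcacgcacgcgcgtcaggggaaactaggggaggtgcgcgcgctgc
Cep152: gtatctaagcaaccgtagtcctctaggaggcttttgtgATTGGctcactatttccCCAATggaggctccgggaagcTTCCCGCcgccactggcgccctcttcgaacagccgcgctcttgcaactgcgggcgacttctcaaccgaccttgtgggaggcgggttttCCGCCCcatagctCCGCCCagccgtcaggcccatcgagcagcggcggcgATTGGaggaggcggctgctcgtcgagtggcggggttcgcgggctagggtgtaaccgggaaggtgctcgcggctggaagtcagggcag
Plk4: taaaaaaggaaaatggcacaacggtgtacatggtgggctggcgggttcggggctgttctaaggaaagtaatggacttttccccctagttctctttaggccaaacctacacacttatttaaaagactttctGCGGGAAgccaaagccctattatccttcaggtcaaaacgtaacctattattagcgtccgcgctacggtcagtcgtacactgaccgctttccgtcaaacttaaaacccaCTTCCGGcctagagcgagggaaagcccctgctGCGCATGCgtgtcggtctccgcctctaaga
Hap1: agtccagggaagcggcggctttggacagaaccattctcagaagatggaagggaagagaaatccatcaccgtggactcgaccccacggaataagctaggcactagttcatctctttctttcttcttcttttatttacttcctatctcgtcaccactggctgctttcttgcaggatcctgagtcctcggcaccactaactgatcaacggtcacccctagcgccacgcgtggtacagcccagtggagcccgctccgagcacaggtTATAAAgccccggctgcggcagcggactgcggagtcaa

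The Ccnf promoter holds 2 CCAAT boxes and 2 copies of the cell cycle homology element TTTGAA, and that of Cep152 holds 3 CCAAT boxes and an E2F match. Mphosph9 has 1 CCAAT box, an E2F match and an NRF1 match. The promoter of Ccp110 has neither a CCAAT box nor an E2F match, and its capitals are an ETS match and a TATA-like match far from the start. Plk4 shares the E2F and NRF1 letters with Mphosph9 but has no CCAAT box, and its NRF1 letters begin 20 bases after the start site. Hap1 has a TATA match only, which begins 12 bases after the start site. The windows of Ccp110 and Plk4 reach beyond the 5′ edge of the peak, and the others lie inside it.

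Centriole promoters were slightly less accessible in the knockout library than in the control, on the scale of CPM. Of the 93, 65 (69.9%) lay below a log2 ratio of 0 and 28 above it. The median log2 ratio was -0.07, with the middle 50% of members between -0.22 and 0.03. Over all 14854 genes the median was -0.02, and 53.2% lay below 0. Summed over the members, 29308 control counts stood against 26505 in the knockout, a ratio of CPM of 0.945 (0.929 to 0.961). This small displacement depends on the scaling: with the median of all peaks set to 0, 50 members (53.8%) lay below 0, against 46.0% of all genes. With the authors' RPM, 86 members (92.5%) lay below 0, against 74.4%. Under each scaling the median of the members was below that of all genes, with a difference between -0.06 and -0.05 on the log2 scale. Setting the median of all peaks to 0, or using the authors' RPM, shifts every peak by nearly the same amount. Such scalings could therefore not change that difference. Of the 37 peaks named by rule, 12 changed sign with the authors' RPM, all from above 0 to below it (Ccdc68, Cep164, Cep250, Cep43, Cep63, Crocc, Dctn1, Fbf1, Ift20, Ofd1, Plk2 and Rock1).

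Single differences were small. No member was 2-fold higher or lower, where 2.03% of all genes were at least 2-fold higher and 2.29% at least 2-fold lower. One member, Hap1, was at least 1.5-fold higher (background 6.09%), and none was at least 1.5-fold lower (background 7.27%). The SD of the log2 ratio over members was 0.21, and over all genes 0.44. The members' peaks were also the deeper ones, with a median of 511 counts over both libraries against 359 for all genes. The counting interval of the ratio lay wholly below 1 in 21 members (22.6%, against 16.9% of all genes) and wholly above 1 in 3 members (3.23%, against 14.1%). The other 69 members had intervals that hold 1, so at this depth no difference from a ratio of 1 was detectable in them. Of the members 91 (97.8%) were called in both libraries, against 84.9% of all genes. Among those 91 the picture was alike, with 65 below 0 and a median of -0.08. Of all genes called in both libraries, only 0.293% were at least 2-fold higher and 0.285% at least 2-fold lower. At 1.5-fold the shares were 2.65% and 3.10%, and none of the 91 members reached it. The SD was 0.19 over the 91 members and 0.30 over all genes called in both.

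**Figure D1:**
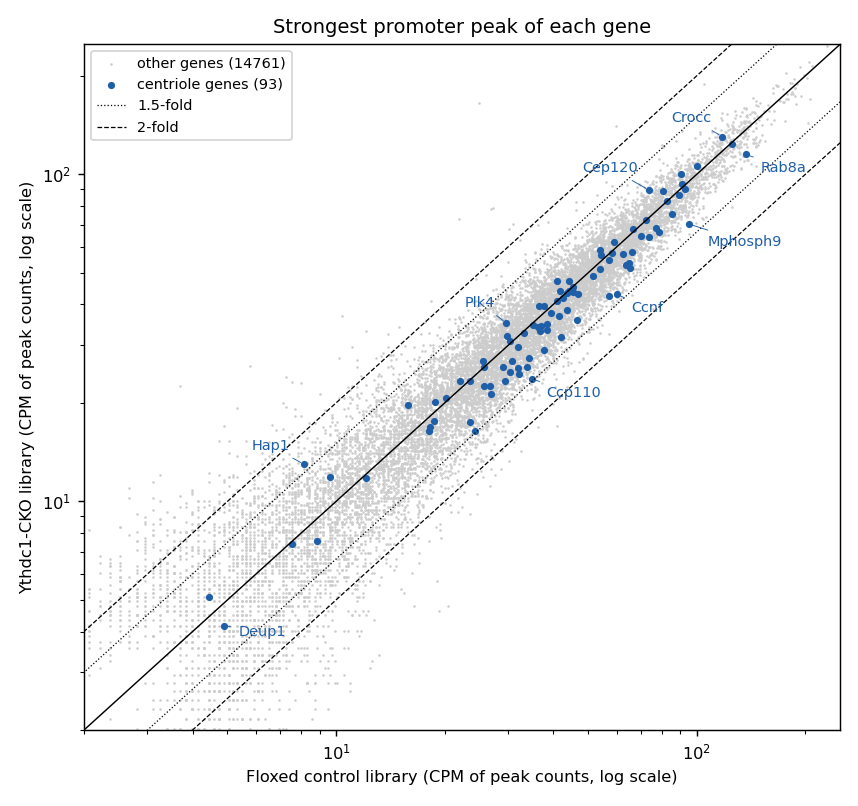
Accessibility of the strongest promoter peak of each gene in the floxed control (horizontal axis) and Ythdc1-CKO library (vertical axis), in CPM on log axes that begin at 2. Grey points are the other genes with counts in both libraries. Blue points are the 93 centriole genes, which lie close to the line of equality and none of which passes 2-fold.

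**Figure D2:**
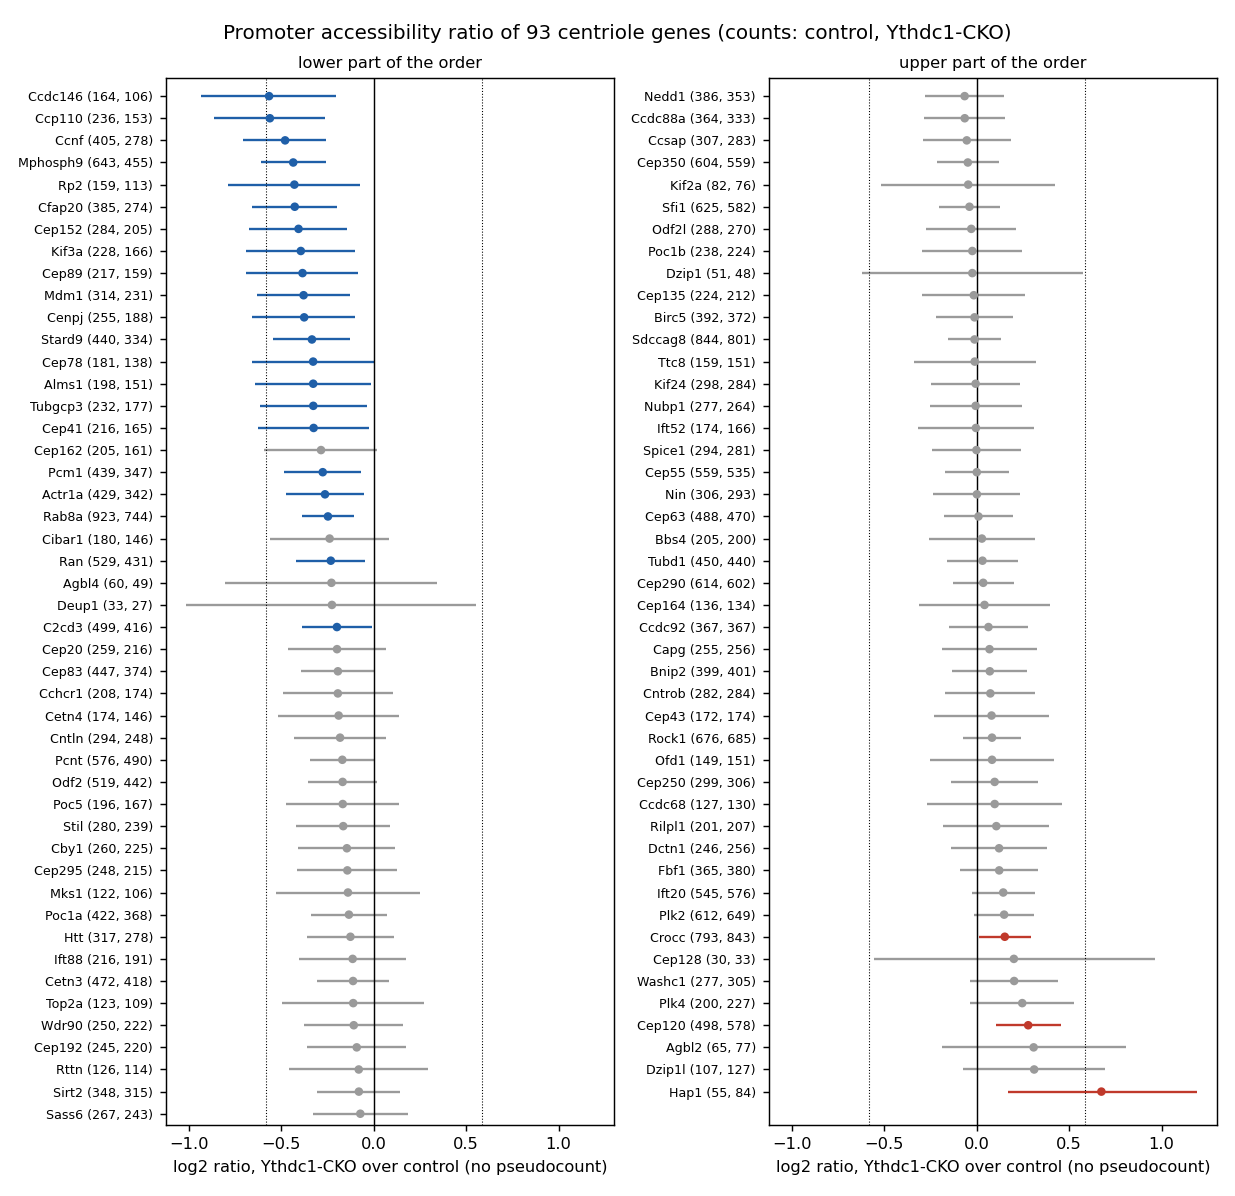
Log2 ratio of CPM, knockout over control, of every centriole gene's strongest promoter peak, ordered from lowest to highest. Bars are exact 95% counting intervals, which cover no variation between animals, and 21 lie wholly below 0 and 3 wholly above it.

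Control counts ranged from 30 to 923 with a median of 277, and knockout counts from 27 to 843 with a median of 243. Per kb of peak, the median member had 49.9 control and 45.2 knockout CPM. The highest density was at Sfi1 (145 and 141 CPM per kb), whose region holds near-identical copies, so its reads are uncertain. Next came Crocc, encoding rootletin of the fibre between centrioles, with 125 and 139 CPM per kb. The lowest was Agbl4, a carboxypeptidase that trims glutamates from tubulin, with 15.1 and 12.9, and next in the control was Deup1, which builds the deuterosomes of multiciliated cells, with 18.4 and 15.7. Sfi1, Agbl4 and Deup1 were chosen for mention after their values were seen.

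The duplication genes start and control the building of a new centriole. Their list has 15 genes, of which 14 had a promoter peak, 10 of them members. Of the 14, 11 lay below 0 and 3 above, with a median of -0.13, and none reached 1.5-fold. Of the 10 members, 7 lay below 0 with a median of -0.08, and all 4 other genes lay below 0. Cep152, which recruits Plk4 to the old centriole, had 284 control and 205 knockout counts (ratio 0.754, 0.627 to 0.906). Cenpj, which sets the growth of centriolar microtubules, had 255 and 188 (ratio 0.770, 0.635 to 0.934). Intervals below 1 were seen at 4 genes of the list, these 2 members and the non-members Cep85 and Cep57, which were added after their values were seen.

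The kinase at the head of the pathway stood on the other side. Plk4 had 200 control and 227 knockout counts (log2 0.25), and its interval of 0.976 to 1.44 holds 1. Plk2, a related kinase, had 612 and 649 counts (log2 0.15, interval 0.990 to 1.24). Neither promoter was therefore distinguishable from a ratio of 1 by counting error. The 2 scaffold genes that act with Plk4 at the cartwheel were also near 1: Stil had 280 and 239 counts (log2 -0.16) and Sass6 267 and 243 (log2 -0.07). The Sass6 peak also holds the start of Trmt13 on the opposite strand. Cep135, a cartwheel protein, had 224 and 212 counts, and Cep63, the partner of Cep152, had 488 and 470. Cep192, which recruits Plk4 and pericentriolar material, had 245 and 220 counts, and Rttn, needed for full centriole assembly, 126 and 114. The differences of these 4 genes were within counting error.

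The wall and length genes build the microtubule barrel and limit how long it grows. Of 28 listed, 25 had a promoter peak and 16 were members, and 22 of the 25 lay below 0 (median -0.13). Of the 16 members 13 lay below 0 (median -0.11). Ccp110, the cap of the distal end that also blocks cilium formation, had 236 control and 153 knockout counts (log2 -0.56, ratio 0.677, 0.549 to 0.834). Mphosph9, which holds that cap in place, had 643 and 455 counts (log2 -0.44, ratio 0.739, 0.654 to 0.835). Mdm1, a microtubule-binding protein of the centriole, had 314 and 231 counts (log2 -0.38). All 3 intervals lie below 1. The Mphosph9 peak, at chr5:124327405-124328299, also holds the start of another gene on the opposite strand.

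Cep120, which promotes centriole elongation, lay on the other side of 0. It had 498 control and 578 knockout counts (log2 0.28, ratio 1.21, 1.07 to 1.37), 1 of only 3 members with an interval above 1. Cep97, which caps the end together with Ccp110 but was no member, had 334 and 307 counts and an interval of 0.820 to 1.12, which overlaps that of Ccp110. It was picked for mention after its value was seen.

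The distal appendages anchor the older centriole to the membrane, and 8 of their 10 listed genes were measured, 6 of them members. Of the 8, 5 lay below 0 and 3 above (median -0.05), and of the 6 members 3 lay on each side (median -0.08). Cep89 had 217 control and 159 knockout counts (ratio 0.765, 0.620 to 0.944), in a peak shared with the start of Faap24. C2cd3, on which appendage assembly depends, had 499 and 416 (ratio 0.871, 0.763 to 0.994). Cep83, the innermost appendage protein, had 447 and 374 (interval 0.760 to 1.01, holding 1). The other 3 members lay near 0. Cep164, which recruits the kinase Ttbk2, had 136 and 134 counts, Ofd1 149 and 151, and Fbf1 365 and 380, each with an interval that holds 1.

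The subdistal appendages anchor microtubules. Of 10 listed genes 8 were measured, 5 of them members, with 5 of the 8 above 0 and a median of 0.05 (-0.12 with the authors' RPM). Of the 5 members 4 lay above 0 (median 0.10). Odf2 had 519 control and 442 knockout counts (log2 -0.17). Dctn1, a dynactin subunit, had 246 and 256, Ccdc68 had 127 and 130, and Cep128 had 30 and 33 in a peak of 200 bp called in the knockout alone. All 4 intervals hold 1. The 1 gene of the list at least 1.5-fold lower was no member: Ccdc61, named after its value was seen, had 294 and 178 counts.

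The linker ties the 2 centrioles of a cell together. Of 7 listed genes 5 were measured, with a median of 0.01 (-0.17 with the authors' RPM and -0.01 with the trend on signal removed). Both of its members lay above 0. Crocc had 793 control and 843 knockout counts (ratio 1.11, 1.01 to 1.23), and Cep250, the anchor of the linker, had 299 and 306 (ratio 1.07, 0.909 to 1.26). The interval of Crocc only just clears 1, and with the authors' RPM its log2 ratio was -0.02.

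Centriolar satellites are granules that carry proteins to the centrosome. All 14 listed genes were measured, with 9 of the 14 below 0 (median -0.12). The 6 members lay otherwise, with 4 above 0 and a median of 0.03, so the list's median below 0 comes with its 8 other genes. Pcm1, their scaffold, had 439 control and 347 knockout counts (ratio 0.826, 0.715 to 0.953). Cep20 had 259 and 216 counts and Cep43 172 and 174, both with intervals that hold 1, and Ofd1, also on this list, is given above. The 2 remaining members, Bbs4 (205 and 200 counts) and Cep290 (614 and 602), both had a log2 ratio of 0.03, and were added after their values were seen. Pcm1 was the only member of this list whose interval lay to 1 side.

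The largest differences among the members of above-median signal also include genes outside these lists. Ccnf, which encodes the F-box protein cyclin F, had 405 control and 278 knockout counts (log2 -0.48, ratio 0.717, 0.613 to 0.837) at chr17:24251063-24251911. Cfap20, a protein of ciliary and centriolar microtubules, had 385 and 274 (log2 -0.43). Stard9, a kinesin of the pericentriolar material, had 440 and 334 (log2 -0.33). These 3 intervals lie below 1.

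Actr1a, the core of the dynactin filament, had 429 and 342 counts (log2 -0.26). Rab8a, a small GTPase that directs membrane to the cilium, had 923 and 744 (log2 -0.25), the largest control count of any member. At the other end, Washc1, of the WASH complex that nucleates actin on endosomes, had 277 and 305 counts (log2 0.20). Ift20, which links the Golgi to cilium transport, had 545 and 576 (log2 0.14), and the kinase Rock1 had 676 and 685 (log2 0.08). The intervals of Actr1a and Rab8a lie below 1 and those of the other 3 hold it.

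The extremes over all members, whatever their signal, were seen at 2 peaks chosen after their values were seen. Ccdc146 had the lowest log2 ratio, -0.56. Hap1, the huntingtin-associated protein, had the highest, with 55 control and 84 knockout counts (log2 0.67, ratio 1.60, 1.12 to 2.28). The Hap1 peak was called in the knockout alone, so that the calling and the difference rest on the same counts. The 41 members in none of the lists of the text had a median of -0.08, with 32 below 0.

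**Figure D3:**
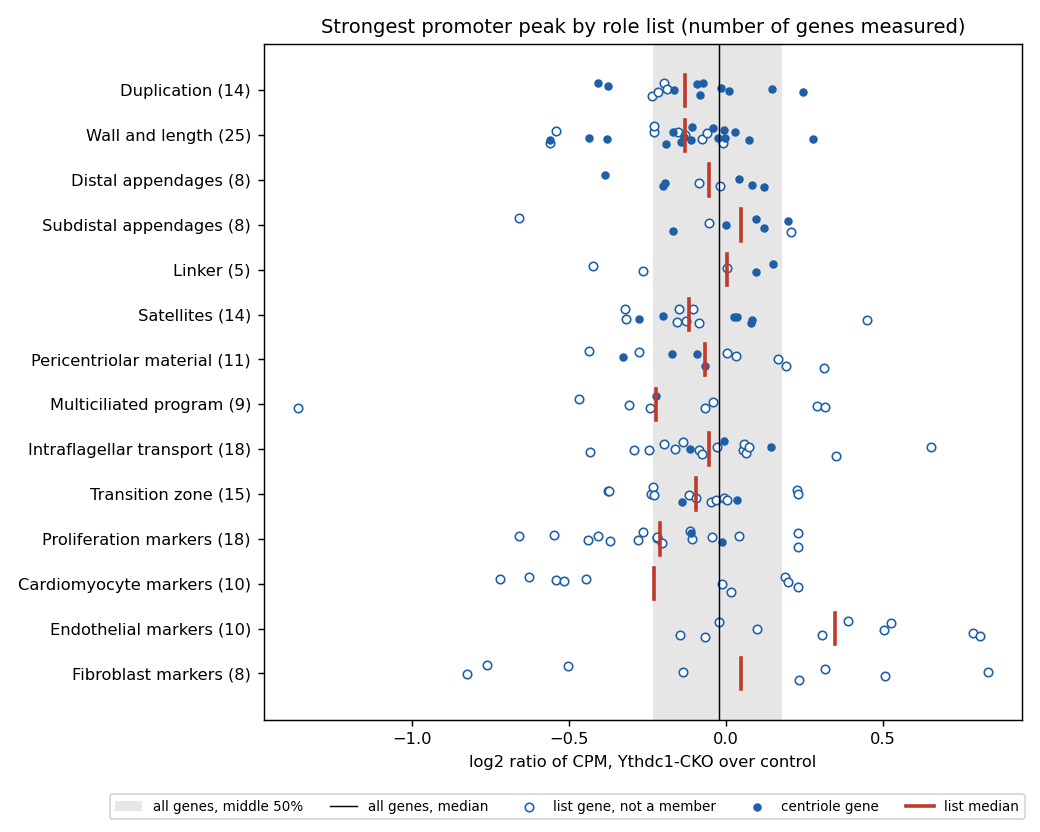
Log2 ratio of CPM, knockout over control, of each gene's strongest promoter peak, grouped by role list, with the number of genes measured in parentheses. Filled points are centriole genes of the set, open points other genes of the list, red bars list medians, and the grey band the middle 50% of all genes. The duplication and the wall and length lists each have a median of -0.13, and the subdistal appendage list 0.05.

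The lists next to the centriole had medians below 0 on the CPM scale. The pericentriolar material, which nucleates microtubules around the centriole, had 11 of 14 genes measured (6 below 0, median -0.07), and its 4 members all lay below 0 (median -0.13). Intraflagellar transport genes, which carry cargo in the cilium, had 18 of 20 measured (11 below 0, median -0.05). Transition zone genes, which gate the base of the cilium, had 15 of 16 measured (11 below 0, median -0.10). The program by which multiciliated cells multiply their centrioles had 9 of 13 measured (7 below 0, median -0.22). The lowest of them was Gmnc with 25 and 9 counts, picked for mention after its value was seen. The lowest of the 4 medians thus belonged to a list with few counts at several promoters.

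Promoters of proliferation markers lay lower in the knockout than those of the centriole genes. All 18 were measured, 15 lay below 0, and the median was -0.21. Their summed CPM was 639 and 556 (control and knockout). Mki67, the common marker of cycling cells, had 259 and 187 counts. Bub1, a spindle checkpoint kinase and the lowest of the list, had 86 and 52. The 3 above 0 were Rrm2 (279 and 275), Ccnb2 (73 and 82) and Bub1b (130 and 146). These markers were picked for mention after their values were seen. Plk1, the mitotic kinase left out by the rule, had 182 and 81 counts (ratio 0.465, 0.353 to 0.607), and Cetn2, left out for its DNA repair term, 181 and 119. The other 2 left out, Aurka with 246 and 234 and Herc2 with 447 and 411, had intervals that hold 1. The part that cell division plays in the values of the centriole genes was not tested.

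Markers of heart cell types also differed between the libraries. For cardiomyocyte markers the summed CPM over 10 promoters was 455 (control) and 413 (knockout) (median -0.23, 4 above 0 and 6 below). For endothelial markers it was 179 and 218 over 10 promoters (median 0.35, 7 above and 3 below). For fibroblast markers it was 104 and 125 over 8 of 10 promoters (median 0.05, 4 above and 4 below). The 2 measured myeloid markers summed to 11.7 and 6.65 CPM, and the 3 measured epithelial and multiciliated markers to 17.3 and 18.7. The part of cell composition in the centriole values was not tested.

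Other annotations were shared by many members. Cytoplasm was carried by 84 members (90.3%, against 37.6% of all genes with gene ontology terms) and cytoskeleton by 75 (80.6%, against 7.62%). Centrosome was carried by 66 (71.0%, against 3.34%). The term for the ciliary basal body was carried by 35 (37.6%, against 0.791%). A centriole is part of the centrosome and cytoskeleton and can become a basal body, so the rule itself favours these terms. The 17 members with the cell cycle term had a median of -0.05, against -0.11 in the 76 without it, and all 489 genes with that term had -0.06. The counting interval lay below 1 in 2 of the 17 members with the term and in 19 of the 76 without it. The 49 members with any cilium term had a median of -0.08, against -0.07 in the other 44. With the cell cycle term and no cilium term, 10 of 12 members lay below 0 (median -0.06), and of the 5 members with both terms 3 lay above 0 (median 0.07).

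The members' promoter peaks were wide and were spread over the genome. Their median width was 813 bp, against 673 bp for all genes, and 70 of 93 were above the median signal of all promoters. They lay on 20 chromosomes, with at most 11 on 1 of them. The nearest neighbours, Mphosph9 and Rilpl1, had peaks 202763 bp apart, so no member shared its peak with another member. Of the 80 members whose starts are in the RefSeq promoter table, 20 had another gene's start on the opposite strand in the same peak. The share over all genes was not counted. These 20 members had a median of -0.08, against -0.11 in the other 60, and at such a peak the counts of the 2 genes cannot be told apart. Among the genes named above, they include Cep63, Cep83, Cep89, Cep290, Ift20, Mphosph9, Ofd1 and Sass6. By signal, 4 of 7 members in the lowest quartile of all genes lay below 0, then 11 of 16, 28 of 37 and 22 of 33. The share of all genes below 0 was 51.9% to 55.0% over the quartiles. In the lowest quartile the members' median of -0.02 was above that of all genes (-0.06), and in the others it was below, at -0.10, -0.11 and -0.07 against -0.04, -0.01 and -0.01.

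Promoter sequence was read for the 73 members whose own RefSeq start lay inside the peak, beside 8587 genes read in the same way. The motifs were the CCAAT box, bound by NF-Y (CCAAT), E2F sites (GCGGGAA, GGCGCGAA or TTGGCGC), the cell cycle homology element CHR (TTTGAA), NRF1 (GCATGCGC), ETS (CCGGAAG), the GC box (GGGCGG), the core of the X-box bound by RFX factors (GTTGCCAT), YY1 (AAGATGGCG) and the promoter box with the letters TATAAA. Both strands were searched, overlapping matches were each counted, and a match is only a run of letters. GC content was nearly equal, 61.5% in members and 61.9% in all genes read.

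The CCAAT box was in 37 of 73 members (50.7%, against 39.0% of all genes read and 37.4% of all 32851 promoters in the table). CHR was in 16 (21.9%, against 10.8% and 17.9%), E2F in 16 (21.9%, against 13.9% and 7.18%) and NRF1 in 11 (15.1%, against 5.81% and 2.71%). The GC box (51 members, 69.9% against 68.5% of all genes read) and ETS (15 members, 20.5% against 18.7%) were at about the share of all genes. TATA was in 3 members (4.11%, against 6.24%), the X-box core in 1 (1.37%, against 1.15%) and the YY1 letters in none (against 3.26%). Cell cycle and NRF1 letters were thus more frequent in these promoters than in those of all genes read, with no test made.

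Members with a CCAAT box lay lower than members without one. Of the 37 with the box, 33 lay below 0, with a median of -0.17 and the middle 50% from -0.32 to -0.02. Of the 36 without it, 20 lay below 0, with a median of -0.01 and the middle 50% from -0.15 to 0.09. Over all genes read, the medians were -0.06 with the box and -0.01 without, so the same order held there with a smaller gap. The gap between the medians was -0.16 in the members and -0.05 in all genes, and removing the trend with signal left both at these values. With the median of all peaks set to 0, 26 of the 37 and 16 of the 36 lay below 0. The 2 groups overlap widely: Fbf1 has the box and lay at 0.12, and Cenpj has none and lay at -0.38.

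E2F showed a smaller gap, with medians of -0.17 in the 16 members that hold a match and -0.07 in the 57 without. Below 0 lay 13 of the 16 (81.2%) and 40 of the 57 (70.2%). Over all genes read, the medians were -0.05 with an E2F match and -0.02 without. The GC box had medians of -0.13 in 51 members and -0.05 in 22, with 40 (78.4%) and 13 (59.1%) below 0. Over all genes read, those with the GC box had -0.03 and those without -0.02. NRF1 had -0.18 in 11 members and -0.08 in 62, where all genes read had 0.01 with the letters and -0.03 without. By share below 0 NRF1 showed no gap, with 8 of 11 members (72.7%) and 45 of 62 (72.6%). ETS had a gap of the opposite sign, with -0.00 in 15 members (9 below 0) and -0.11 in 58 (44 below 0), where all genes read had -0.02 and -0.03. For CHR the measures differed: the median was -0.06 in 16 members and -0.11 in 57, but 13 of the 16 (81.2%) and 40 of the 57 (70.2%) lay below 0. Over all genes read, those with CHR had -0.04 and those without -0.02. These groups share members, as the printed promoters of Ccnf, Cep152 and Mphosph9 show, so the motifs' values are not separate from each other.

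The members' peaks outside the first kb of a promoter were weaker by median and more variable than their strongest promoter peaks. This was also so over all genes. The median control count of these member peaks was 56.5 (all such peaks: 52.0), and the SD of the log2 ratio was 0.70 (all such peaks: 0.79). The table assigned 181 peaks to these genes, and 55 genes had a single peak. Outside the first kb of a promoter there were 74 peaks of 36 genes, 24 above 0 and 50 below, with a median of -0.32 (all such peaks: -0.09). Of the 74, 12 (16.2%) were at least 2-fold lower and 1 (1.35%) at least 2-fold higher, beside 12.0% and 7.79% of all such peaks. Of the 12, 11 had been called in the control alone, so the calling and the difference rest on the same counts. Peaks called in both libraries numbered 34, with 16 above 0, 18 below and a median of -0.05, against 0.04 for all such peaks. By place, the medians were -0.22 for 27 peaks 1 to 3 kb from a start, -0.26 for 24 in introns, -0.55 for 6 in exons or at gene ends and -0.55 for 17 between genes.

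The following single peaks were chosen after their values were seen. The 1 peak called in both libraries and at least 2-fold lower lay in intron 9 of Agbl4, at chr4:111597238-111597751, with 140 control and 57 knockout counts (ratio 0.425, 0.307 to 0.583). In the opposite direction, a peak in intron 17 of Sdccag8, a gene of the centrosome and cilium base, had 114 and 192 counts (ratio 1.76, 1.39 to 2.24) at chr1:177014307-177015175. At the promoters of the same 2 genes, Agbl4 had 60 and 49 counts (interval 0.573 to 1.27, which overlaps that of the intron peak) and Sdccag8 844 and 801 (0.899 to 1.09, which does not). The Sdccag8 promoter peak also holds the start of Cep170. An intergenic peak assigned to Rock1 had 66 and 10 counts and was called in the control alone. The 5 peaks assigned to Cep41, of the tubulin-modifying machinery of cilia, all lay below 0, and the 4 besides its strongest promoter peak were called in the control alone.

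Of the 14 weaker promoter peaks of members 9 lay above 0, with a median of 0.45. All weaker promoter peaks in the table had a median of 0.01. Of the 14, 6 had been called in the knockout alone and 2 in the control alone, against 943 and 1333 of all 4512 weaker promoter peaks, so calling and difference are again tied. Of the 6 called in both libraries, 3 lay above 0 and 3 below. A second promoter of Nin, a subdistal appendage protein, was called in both libraries, with 61 and 97 counts (ratio 1.66, 1.19 to 2.33), whereas its strongest promoter had 306 and 293. A second promoter of Poc1b, a protein of the centriole wall, was called in both with 140 and 77 counts (ratio 0.574, 0.429 to 0.764), whereas its strongest had 238 and 224. Both were picked after their values were seen.

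**Figure D4:**
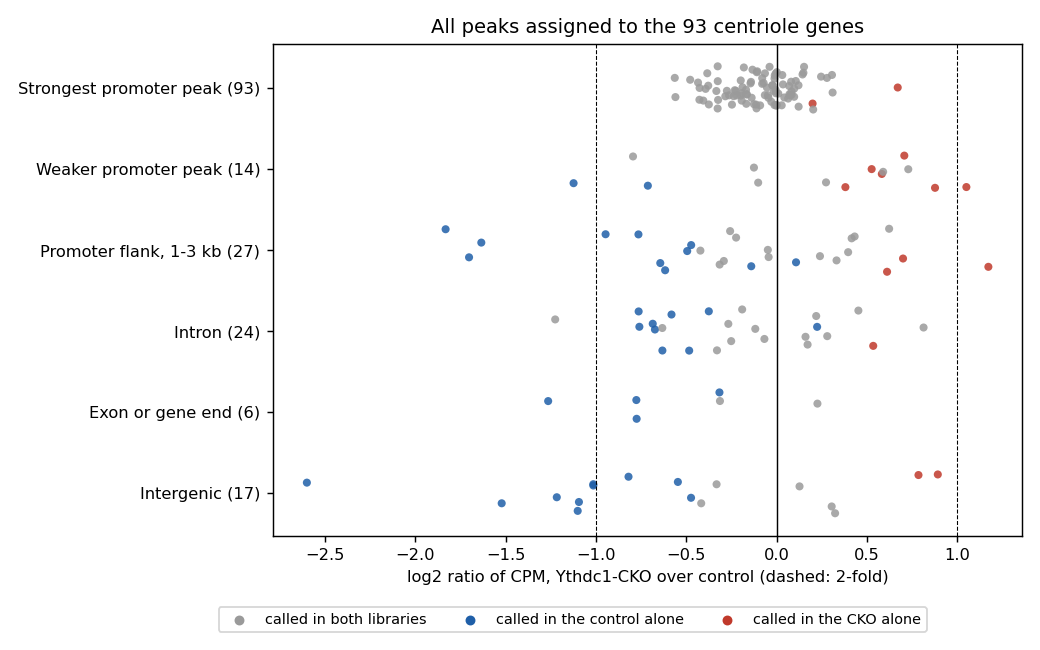
Log2 ratio of CPM, knockout over control, of all 181 peaks assigned to the 93 centriole genes, by place, with the number of peaks in parentheses and colours for the library in which a peak was called. Dashed lines mark 2-fold, which no strongest promoter peak passes and which 11 peaks called in the control alone pass outside the promoters.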

How the data were processed

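ATAC-seq was done on heart nuclei, 1 library per genotype, grouped by the genotype label. BWA, MACS2 and GRCm38.p6 are named, with no version, in the submitters' processing notes. Nothing on read filters, deduplication or a Tn5 shift is stated (not given in the sources used here). Peaks of both libraries were merged: the deposited table holds 58076. Its deposited counts are raw whole numbers for each peak, per the file headers. The authors' deposited RPM values follow the counts plus 1, with 1 constant per library, and were used only as an alternative scaling. The authors' deposited fold enrichment, a ratio, and their deposited log2 fold change were not used.

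Log2 ratios were computed from CPM over all peaks with 0.5 counts added, and intervals from the binomial share of counts (Python 3.11.15, scipy 1.17.1). TMM factors came from edgeR 4.0.16 and served as a scaling only. Counts in peaks were 13.3% and 11.8% of the totals that the RPM constants imply, and the median peak held 65 and 60 counts, which limits single peaks outside promoters most. Gene identifiers were matched by position to symbols of RefSeq genes on GRCm38.p6 (18542 of 24480, and all 93 members). The matching took spans overlapping by at least 0.5 of their union, otherwise a start within 200 bp or a span 95% inside 1 coding gene. Each peak is assigned by the authors to 1 gene, so a gene can lack a promoter peak because a neighbour holds it.

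The members, gene lists and motifs were chosen with earlier results of these data known. Genes named in the text are the 8 highest and 8 lowest members of above-median signal, all duplication and distal appendage members, up to 4 of each other list describing the centriole, and any 2-fold member (none). Members left out by the rule are named only where a result turns on them. Other genes named were picked once their values were known, which the text does not repeat at each one. Alternatives were other scalings, a pseudocount of 5, other choices of promoter peak and other member sets. The log2 ratio, its interval and the fold rule were tested on simulated counts with known ratios, and the other steps were not.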

Additional observations from a re-analysis of the deposited data

How the results depend on the processing

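With 1 library per genotype nothing here separates genotype from animal, dissection or library. No paired analysis was possible because each genotype has 1 library. The members' median log2 ratio of -0.07 moved with the scaling of the libraries, to -0.021 under median centring, -0.021 under TMM scaling and -0.24 with the authors' RPM, while the median of all genes moved with it to 0.03, 0.03 and -0.19. Members above 0 numbered 43 under median centring, 43 under TMM scaling and 7 with the authors' RPM, against 28. The count of members at least 1.5-fold higher went from 1 to 0 with the authors' RPM, among peaks called in both libraries and above the median signal. The count at least 1.5-fold lower went from 0 to 6 with the authors' RPM. With nothing left out by the rule, 1 gene (Plk1) was at least 1.5-fold lower and 1 at least 2-fold lower. The median, the counts on each side of 0 and the other size counts stayed within their tolerances with the trend on signal removed, with a pseudocount of 5, with a gene's promoter peaks averaged, with the 3 kb limit and with neighbouring peaks counted once. Leaving out Sfi1, an alternative added after seeing the data, gave a median of -0.08. Of 185 alternative values for the named peaks 5 moved, all with the authors' RPM, and Cep135 (median centring and TMM scaling, 0.04) and Cep63 (trend removed, -0.0042) changed sign. Of 70 alternative list medians 17 moved, 14 of them with the authors' RPM.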
